A study of Mus musculus with 9 samples.

Results

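The genes described here encode 6 STAT transcription factors, Stat2, Stat3, Stat4, Stat5a, Stat5b and Stat6, and were taken by symbol from the count tables of mouse spleen regulatory T cells (Tregs). All 6 were among the 23393 rows that name a gene, and all 6 passed the filter on low counts, which left 12219 genes. RNA was sequenced in 9 libraries, 3 in each of 3 groups: ST2-low and ST2-high cells, both from the wild type and named for their ST2 level, and cells of the genotype ST2KO. ST2 is the receptor for interleukin-33, encoded by Il1rl1, and the series concerns Tregs that carry it in kidney injury. No treatment is named in the labels, which give spleen as the tissue of every library. The ST2KO allele, the strain, the age of the mice, the sorting gates and whether replicates came from separate mice were not stated in the labels. The p-values therefore rest on the spread between these libraries, which may be technical.

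STAT proteins wait in the cytoplasm until a cytokine receptor is engaged. Janus kinases (JAKs) bound to the receptor then phosphorylate them, and the STATs pair through their SH2 domains, enter the nucleus and bind DNA. In Tregs, STAT5 carries the interleukin-2 signal that maintains Foxp3. STAT3 serves the interleukin-6, interleukin-10 and interleukin-21 receptors, STAT4 the interleukin-12 receptor and STAT6 the interleukin-4 receptor, and STAT2 joins the factor that type I interferon activates. The counts measure their messenger RNA and say nothing of phosphorylation.

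Total counts per library lay between 11659659 and 43406680. Il1rl1 stood at 2.16, 3.59 and 2.11 CPM (counts scaled by the library total over tested genes and its TMM factor) in ST2-low, at 516, 420.7 and 547 CPM in ST2-high, and the ST2KO libraries gave 57.7, 61.4 and 83.6 CPM. Which exons those reads came from cannot be seen in gene totals, and the knockout label is not checked by them. The Treg factor gene Foxp3 was at 430.2 ± 18 CPM in the knockout, 462 ± 16 CPM in ST2-low and 568 ± 48 CPM in ST2-high (mean ± SD, n = 3 here and below). Of 8 Treg markers, 2 were higher and 3 lower in ST2KO than in ST2-low, Ctla4 by 2.54-fold. Over all tested genes 33% were higher and 29.3% lower in that comparison. These shares stand behind every marker count of ST2KO against ST2-low in this paragraph. The 8 Treg markers summed to between 4145 and 4253 CPM in ST2KO, against 5211 to 5355 CPM in ST2-low and 6014 to 6366 CPM in ST2-high. Of the 8, 1 was higher and 5 lower in ST2KO than in ST2-high, beside 31.9% and 32.6% of all tested genes. In ST2-high against ST2-low 5 were higher and 0 lower by edgeR, beside 15.3% and 10.8% of all tested genes. Among the 8, the T cell genes Cd3e and Cd4 lay at 352 ± 12 and 424 ± 17 CPM in ST2KO against 348 ± 7.5 and 422 ± 6.0 CPM in ST2-low. The summed level of 16 myeloid and dendritic markers lay between 97.5 and 108 CPM in ST2KO, between 215 and 249 CPM in ST2-low and between 202 and 214 CPM in ST2-high. Of the 14 of them that were tested, 12 were lower in ST2KO than in ST2-low, among them Vcam1 at 5.76 ± 1.6 CPM against 33.0 ± 5.1 CPM and Csf1r at 5.83 ± 1.1 CPM against 27.5 ± 6.0 CPM. Of 10 B cell markers 5 were lower, Blk and Ebf1 among them, and their sum lay between 103 and 132 CPM in ST2KO and between 114 and 172 CPM in ST2-low. Of 7 tested neutrophil markers 4 were lower, Ltf by 8.43-fold, and 1 higher, with sums of 4.54 to 5.49 CPM in ST2KO and 10.1 to 34.8 CPM in ST2-low. Of 9 tested natural killer and CD8 T cell markers 2 were lower, Eomes and Tbx21, and their sums lay between 42.2 and 53.0 CPM in ST2KO and between 57.5 and 61.3 CPM in ST2-low. Klra8 of that list had no count in any library. The part of other cells in the STAT values was not tested. ST2-high replicate 3 stood apart within its group, with a chi-square per gene of 16.5 and 19.9 against its fellow replicates, where other pairs within a group reached at most 8.22. The chi-square includes the ribosomal RNA row Rn45s, which held 16.7% of the counts of that library. In ST2-high replicates 1 and 2 it held 13.0% and 12.1%, and its part in the chi-square was not separated.

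The libraries labelled ST2KO held less transcript of Stat3, Stat5a and Stat5b than either wild-type population, while Stat4 and Stat6 were slightly higher. Stat5a fell most. In ST2KO against ST2-low, 3 of the 6 STAT genes fell, 2 rose and Stat2 did not pass the test. In that comparison 62.3% of all tested genes passed, 33% higher and 29.3% lower, so a count of 5 in 6 says little about the family. The groups did not overlap for 5 of the 6 and for 67.2% of all tested genes. A fall of 2-fold or more was seen in 3 of the 6 and in 6.64% of all tested genes. The median log2 fold change was -0.66 over the STAT genes and 0.05 over all tested genes. In bulk samples, fewer cells of a type and less RNA per cell cannot be told apart.

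Stat5a, which carries interleukin-2 family signals, measured 657, 676 and 664 CPM (ST2-low replicates 1, 2 and 3), 576, 564 and 597 CPM (ST2-high) and 138, 137 and 147 CPM (ST2KO). No 2 of the groups overlapped, and every ST2KO library lay far below the wild-type libraries. Stat5a was 4.74-fold lower in ST2KO than in ST2-low (log2 fold change -2.25 ± 0.05 SE, edgeR adjusted p = 5.32e-25) and 4.13-fold lower than in ST2-high (-2.05 ± 0.05, edgeR adjusted p = 3.76e-24). Of the 12219 tested genes, 1.30% lay below Stat5a in fold change from ST2-low to the knockout, and 1.98% from ST2-high.

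Stat5b, its paralog, measured 864, 864 and 827 CPM (ST2-low), 822, 739 and 866 CPM (ST2-high) and 339.7, 338 and 306 CPM (ST2KO). The wild-type groups overlapped, and the ST2KO libraries lay below all of them. The fall was 2.59-fold against ST2-low (log2 fold change -1.37 ± 0.06 SE, edgeR adjusted p = 1.13e-18) and 2.46-fold against ST2-high (edgeR adjusted p = 3.54e-18).

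Stat3, which serves receptors that share the gp130 chain as well as the interleukin-10 and interleukin-21 receptors, measured 834, 819 and 809.6 CPM (ST2-low), 839, 791 and 889 CPM (ST2-high) and 287, 273 and 282 CPM (ST2KO). Again the wild-type groups overlapped each other and not ST2KO. Stat3 was 2.92-fold lower in ST2KO than in ST2-low (log2 fold change -1.55 ± 0.05 SE, edgeR adjusted p = 5.69e-21) and 2.99-fold lower than in ST2-high (edgeR adjusted p = 2.41e-21). The smallest count behind these 3 genes was 1795, for Stat5a in ST2KO replicate 3.

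**Figure D1:**
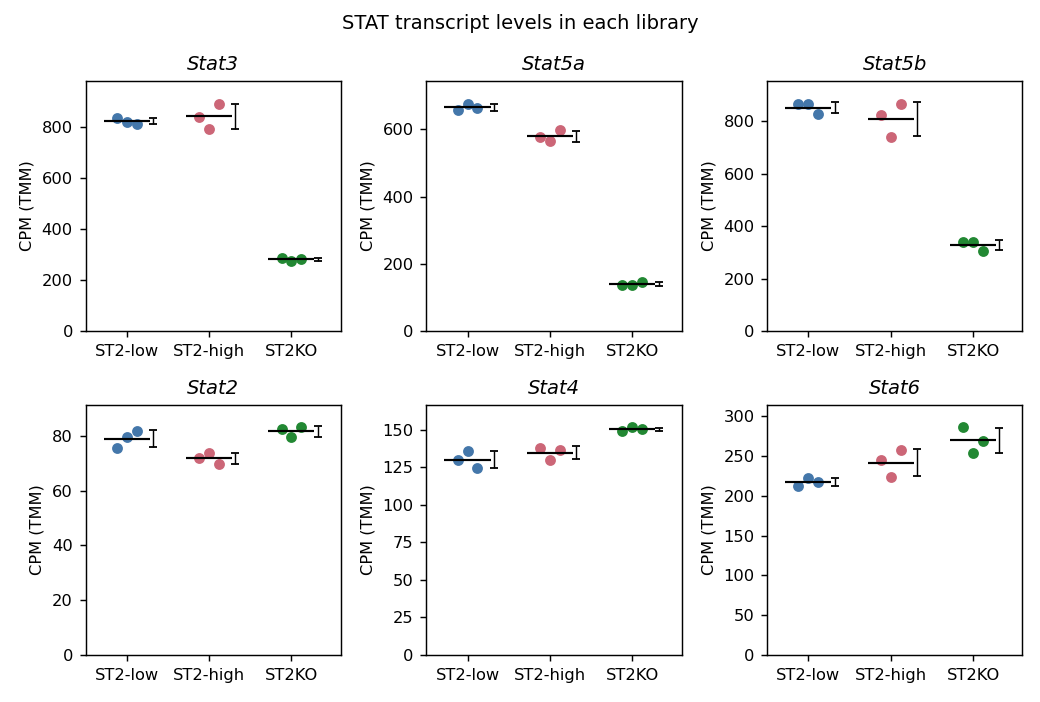
TMM-scaled CPM (linear axes starting at 0) of the 6 STAT genes in each library, by group; points are libraries, horizontal lines group means and bars SD (n = 3). The ST2KO points of Stat3, Stat5a and Stat5b lie between 137 and 339.7 CPM, below every wild-type point of the same gene, while those of Stat2, Stat4 and Stat6 do not fall.

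Stat5a and Stat5b did not fall by the same factor. Within a library, the Stat5a count was between 76.0% and 80.3% of the Stat5b count in ST2-low, between 69.0% and 76.3% in ST2-high and between 40.4% and 48.0% in ST2KO. The mean log2 ratio of Stat5a to Stat5b was -0.35 ± 0.04 in ST2-low, -0.48 ± 0.08 in ST2-high and -1.22 ± 0.14 in ST2KO (SD, n = 3). ST2KO lay apart from both wild-type groups, which overlapped each other. An exact two-sided permutation test over the 1680 assignments of the 9 libraries to 3 groups gave p = 0.00714. Between pairs of groups the exact permutation p was 0.1 for ST2KO against ST2-low and for ST2KO against ST2-high, the smallest that 3 libraries against 3 allow, and 0.2 for ST2-high against ST2-low. The ratio compares counts of transcripts of different length, so its level cannot be read. A length difference that is the same in every library leaves its change between groups as it is. Reads that match both genes could alter that change.

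The genes are paralogs, and how the authors' counting treated reads that match both is not stated. Of the 50-base stretches of the longest Stat5a transcript in GENCODE M21, 15.8% occur without mismatch in a Stat5b transcript, and of those of the longest Stat5b transcript 11.8% occur in Stat5a. At 100 bases the shares were 6.99% and 5.18%. No other pair of the 6 genes shared a stretch of 50 bases. The separate values of Stat5a and Stat5b, and their ratio, are therefore uncertain. These shares do not bound the error, which could be larger for the scarcer gene and could differ between groups.

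**Figure D2:**
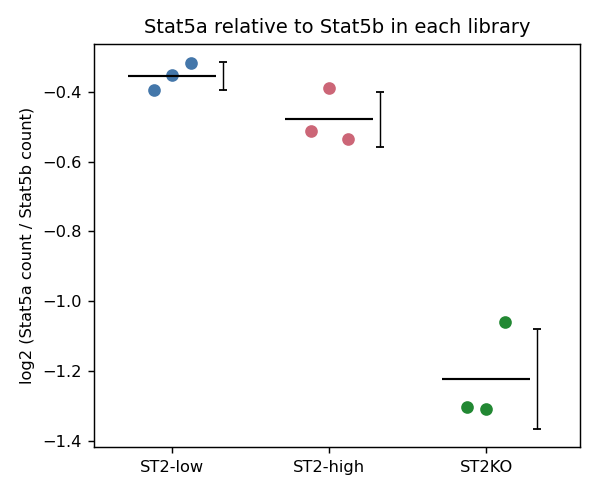
Log2 ratio of the Stat5a count to the Stat5b count (vertical axis, log2 units) in each library, by group; points are libraries, lines group means and bars SD (n = 3). The ST2KO mean lies at -1.22, below -0.35 in ST2-low and -0.48 in ST2-high.

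Stat6, which carries interleukin-4 signals, measured 212, 222 and 218 CPM (ST2-low), 245, 223 and 257 CPM (ST2-high) and 286, 254 and 269 CPM (ST2KO). ST2-low was the lowest group without overlap, and the ST2-high and ST2KO ranges overlapped. Stat6 was 1.24-fold higher in ST2KO than in ST2-low (log2 fold change 0.31 ± 0.06 SE, edgeR adjusted p = 1.6e-05). It was 1.12-fold higher than in ST2-high (edgeR adjusted p = 0.0133), a call lost without ST2-high replicate 1, ST2-high replicate 2 or ST2KO replicate 1 (edgeR adjusted p = 0.0626, 0.107 and 0.115; 0.00385 to 0.115 over all alternatives).

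Stat4, the interleukin-12 responsive member, measured 129.9, 136 and 125 CPM (ST2-low), 138, 129.9 and 137 CPM (ST2-high) and 149, 151 and 150.1 CPM (ST2KO). The wild-type ranges overlapped and ST2KO lay above both. The rise was 1.16-fold against ST2-low (log2 fold change 0.21 ± 0.05 SE, edgeR adjusted p = 0.000797) and 1.11-fold against ST2-high (edgeR adjusted p = 0.00873).

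Stat2, the interferon member, measured 75.5, 79.7 and 81.7 CPM (ST2-low), 71.8, 73.7 and 69.7 CPM (ST2-high) and 82.4, 79.4 and 83.1 CPM (ST2KO). ST2KO overlapped ST2-low and lay above ST2-high. Against ST2-low the log2 difference was 0.05 with a 95% interval of -0.06 to 0.16 (edgeR adjusted p = 0.480). Against ST2-high it rose 1.14-fold (edgeR adjusted p = 0.0058). All 6 STAT genes thus passed in ST2KO against ST2-high, 3 lower and 3 higher, where 64.5% of all tested genes passed, 32.6% lower and 31.9% higher. The groups did not overlap for 5 of the 6 and for 66.8% of all tested genes, and 3 fell by 2-fold or more, where 8.86% of tested genes did. The median log2 fold change was -0.57 over the 6 and 0.02 over all tested genes. Both comparisons of the knockout rest on its same 3 libraries.

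Within the wild type, the STAT genes differed little between ST2-high and ST2-low Tregs. Of the 6, Stat5a fell and Stat6 rose, and 26.1% of all tested genes passed in that comparison, 15.3% higher and 10.8% lower. Stat5a was 1.15-fold lower in ST2-high (log2 fold change -0.20 ± 0.05 SE, edgeR adjusted p = 0.00252). Stat6 was 1.11-fold higher (0.15 ± 0.06, edgeR adjusted p = 0.0430), and that call was lost in 8 of 16 alternatives (adjusted p between 0.0061 and 0.150 over edgeR, DESeq2 and limma), among them leaving out any single ST2-low library, ST2-high replicate 1 or ST2-high replicate 3. Stat2 averaged 71.8 ± 2.0 CPM against 79.0 ± 3.1 CPM in ST2-low, with no call (edgeR adjusted p = 0.0776). The groups did not overlap for Stat2, Stat5a and Stat6, 3 of the 6, and for 38.1% of all tested genes. Stat2 passed as lower with DESeq2 size factors (edgeR adjusted p = 0.0349) and with DESeq2's Wald test (0.0373; 0.0349 to 0.251 over all alternatives). For Stat3, Stat4 and Stat5b the 95% intervals of the log2 difference were -0.07 to 0.13, -0.05 to 0.15 and -0.18 to 0.04.

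**Figure D3:**
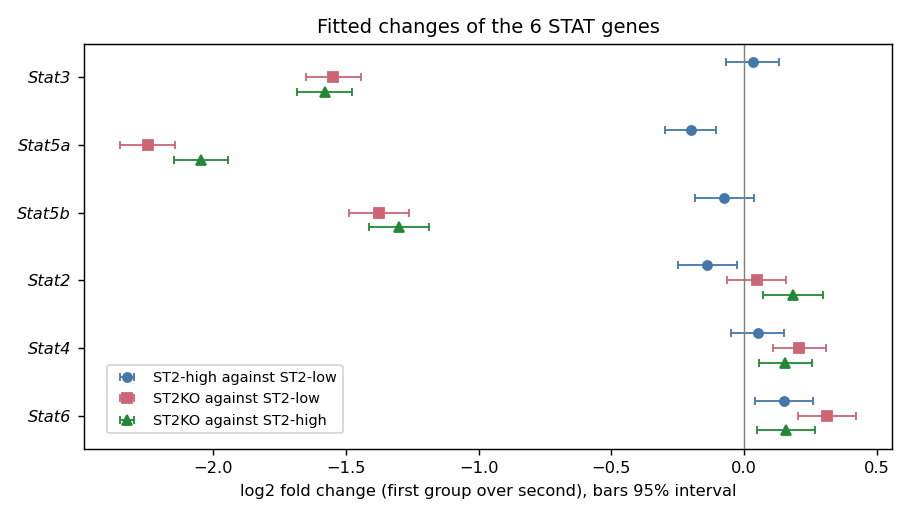
Fitted log2 fold changes (horizontal axis, first group over second) of the 6 STAT genes in the 3 comparisons; bars are 95% intervals and the grey line marks no change. Stat3, Stat5a and Stat5b lie between -2.25 and -1.30 in both ST2KO comparisons, and every other value lies between -0.20 and 0.31.

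Per kilobase of the longest coding transcript in GENCODE M21, Stat5a was the most abundant in ST2-low at 171 ± 2.5 CPM per kilobase, followed by Stat5b at 163 ± 4.0, Stat3 at 136 ± 2.1, Stat6 at 57.6 ± 1.4, Stat4 at 43.6 ± 1.9 and Stat2 at 18.0 ± 0.71. No neighbours in that order overlapped between libraries. In ST2-high, the ranges of Stat5b at 155 ± 12, Stat5a at 149 ± 4.3 and Stat3 at 139 ± 8.2 overlapped. In ST2KO the order was Stat6 at 71.5 ± 4.2, Stat5b at 62.9 ± 3.7, Stat4 at 50.4 ± 0.36, Stat3 at 46.5 ± 1.2, Stat5a at 36.1 ± 1.4 and Stat2 at 18.6 ± 0.44, again with no overlap between neighbours. On this scale Stat3, Stat5a and Stat5b made up 79.8% of the summed level of the 6 genes in ST2-low, 77.9% in ST2-high and 50.9% in ST2KO. The sum itself was 590 CPM per kilobase in ST2-low, 569 in ST2-high and 286 in ST2KO. The transcripts that the cells use are not known from counts per gene. Another choice of length would shift these levels and could change their order, also where libraries did not overlap. By count, before scaling for length, Stat5b lay above Stat5a in every library.

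The 3 genes that fell lie side by side on mouse chromosome 11, in the order Stat5b, Stat5a, Stat3, with no other tested gene between them. Stat4 lies on chromosome 1, and Stat2 and Stat6 lie on chromosome 10. Stat5b and Stat5a are read away from each other. The letters before their start sites, and before those of Stat3 and Stat2, are shown because the first 3 moved together and Stat2 did not. They come from RefSeq, build GRCm38.p6, and run 5′ to 3′ on the strand of the gene from 250 bases before the start to the first base of an annotated exon or gene. Capitals mark GGGCGG, or its complement CCGCCC, in the first 3, a GC box of the kind Sp1 binds. In Stat2 they mark TTTC, any 2 bases, TTTC, the complement of the GAAA pair that interferon response elements hold. The Stat2 stretch holds 2 GC boxes as well, left in small letters. Every printed stretch thus holds a GC box, and whether it bears on these changes was not tested.
Stat5b chr11:100850725-100850831 minus strand: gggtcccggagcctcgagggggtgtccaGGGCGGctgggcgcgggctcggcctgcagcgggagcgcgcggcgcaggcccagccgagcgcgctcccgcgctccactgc
Stat5a chr11:100860234-100860344 plus strand: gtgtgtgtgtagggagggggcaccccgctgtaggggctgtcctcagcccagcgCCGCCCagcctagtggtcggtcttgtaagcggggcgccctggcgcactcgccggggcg
Stat3 chr11:100939595-100939790 minus strand: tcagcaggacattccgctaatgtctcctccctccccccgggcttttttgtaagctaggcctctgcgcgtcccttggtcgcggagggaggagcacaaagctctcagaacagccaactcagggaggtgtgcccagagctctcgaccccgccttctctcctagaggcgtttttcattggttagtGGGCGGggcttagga
Stat2 chr10:128270248-128270497 plus strand: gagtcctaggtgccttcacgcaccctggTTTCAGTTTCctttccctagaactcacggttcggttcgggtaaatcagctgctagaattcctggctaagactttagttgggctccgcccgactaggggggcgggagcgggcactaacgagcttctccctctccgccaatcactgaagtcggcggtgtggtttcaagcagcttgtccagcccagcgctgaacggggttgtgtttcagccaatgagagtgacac

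All 6 genes had at least 1 window in the promoter table, 9 windows in all, each from 250 bases before to 50 bases after a start. The printed Stat5b stretch is rich in G and C (82.2%), as is that of Stat5a (73.0%), with 59.2% in Stat3. Where a gene had more than 1 window, the one with the most CG pairs was printed, so the choice itself favoured G and C. The whole Stat5b window held 82.7% G and C, above 99.6% of the 32851 windows in the table, whose median was 52.7%. The other Stat5b window in the table held 47.3% G and C, above 29.7% of windows, and held no GC box. The other Stat5a window held 57.7% G and C, above 64.5% of windows, and likewise no GC box. GGGCGG on either strand was present in 1 window each of Stat5b, Stat5a, Stat3 and Stat2, in none of Stat4 or Stat6, and in 35.7% of all windows. The STAT site TTCNNNGAA, whose complement reads the same, was in none of the 9 windows and in 8.30% of all windows. The wider spaced form, TTC, any 4 bases, GAA, was in the Stat2 window and in 6.95% of all windows. GAAA, any 2 bases, GAAA on either strand was in the Stat2 window and 1 of the Stat4 windows, and in 3.44% of all windows. Matches are letters in a window and describe no binding.

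The genes around the chromosome 11 stretch moved both ways. Within 500 kb on either side, 36 other genes were tested, of which 9 fell, 18 rose and 9 did not pass in ST2KO against ST2-low. Over all tested genes 29.3% fell and 33% rose. The median log2 fold change was 0.42 over the 36 and 0.05 over all tested genes. On the Stat3 side the next gene, Ptrf, which encodes a caveola protein, had a log2 fold change of -1.65 (edgeR adjusted p = 1.91e-05) at a mean of at most 2.78 CPM in any group, and beyond it Atp6v0a1, a subunit of the proton pump, rose by 0.47. On the Stat5b side Ghdc rose by 0.71 on the log2 scale, and beyond it the potassium channel gene Kcnh4 fell by 1.37 at no more than 2.6 CPM. In ST2KO against ST2-high, 10 of the 36 fell and 17 rose, beside 32.6% and 31.9% of all tested genes. In ST2-high against ST2-low 4 fell and 5 rose, beside 10.8% and 15.3% of all tested genes.

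Around the other members, the genes next to Stat2, Timeless and Pan2, had log2 differences of 0.09 and 0.05 in ST2KO against ST2-low and did not pass (edgeR adjusted p = 0.428 and 0.493). Beyond them Spryd4 fell by 0.74 and Cnpy2 rose by 0.82. Beside Stat6, Lrp1, a lipoprotein receptor gene, fell by 2.02 and Nab2, a corepressor of EGR factors, by 0.27. Shmt2 and 1700012D01Rik, beyond these, had differences of -0.09 and 0.09 and did not pass. Nabp1 and Sdpr, before Stat4, had differences of 0.19 and 0.04 and did not pass. In the RefSeq table the span of Stat6 overlaps Nab2 and the noncoding Gm30989, that of Stat2 overlaps Apof, that of Stat3 the noncoding Gm46295, and that of Stat4 the pseudogene Gm3940 and the noncoding Gm31812. Stat5a and Stat5b overlap no other gene there. Without a stated strand setting, reads there could have been shared out either way.

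**Figure D4:**
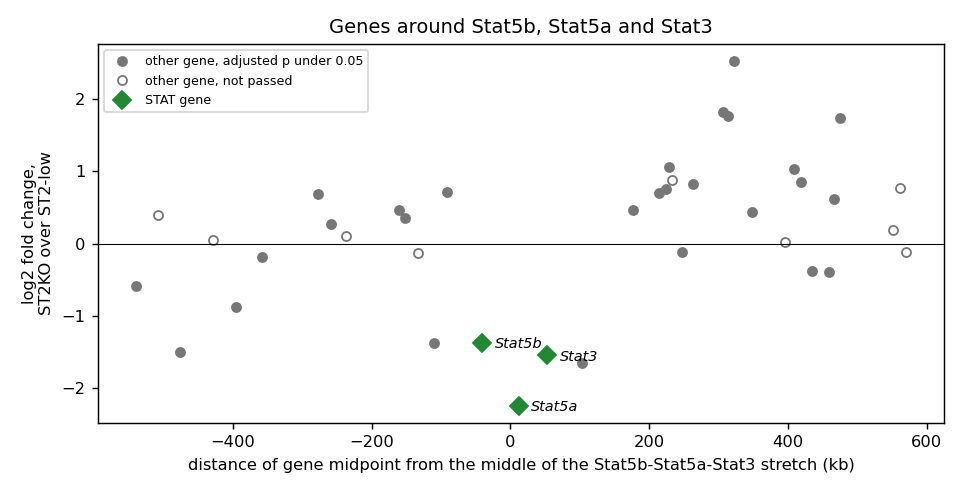
Log2 fold change of ST2KO over ST2-low (vertical axis) for the tested genes within 500 kb of Stat5b, Stat5a and Stat3, against distance from the middle of that stretch in kb; diamonds are STAT genes, filled circles other genes with adjusted p under 0.05 and open circles those that did not pass. The STAT genes lie between -2.25 and -1.37, while 18 of the 36 other genes rose and 9 fell.

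The kinases that act on STATs moved unequally. Jak2, which serves interferon-gamma, interleukin-12 and gp130 receptors, was at 237 ± 7.4 CPM in the knockout, 712 ± 31 CPM in ST2-low and 982 ± 66 CPM in ST2-high. It rose 1.38-fold in ST2-high against ST2-low (edgeR adjusted p = 6.66e-08) and fell 3.0-fold from ST2-low to ST2KO (edgeR adjusted p = 1.16e-20). Jak1, the partner of Jak3 on gamma-chain receptors, was at 1129 ± 48 CPM in the knockout, 1332 ± 23 CPM in ST2-low and 1178 ± 19 CPM in ST2-high, 1.18-fold lower in ST2KO than in ST2-low. Jak3 rose 1.21-fold and Tyk2, an interferon and interleukin-12 receptor kinase, 1.41-fold in ST2KO against ST2-low. Within the wild type, Jak1 was 1.13-fold lower in ST2-high, while Jak3 and Tyk2 were higher by about 1.1-fold and 1.25-fold. In ST2KO against ST2-high, Jak2 fell 4.14-fold and Tyk2 rose 1.13-fold, and Jak1 and Jak3 did not pass.

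Receptors that signal through STAT5, STAT3 or STAT6 moved both ways in ST2KO. Of 9 gamma-chain and related receptors, 4 rose, 4 fell and 1 did not pass against ST2-low, where 33% of all tested genes rose and 29.3% fell. The interleukin-2 receptor chains changed by at most 1.23-fold, with Il2ra 1.23-fold higher, Il2rb 1.2-fold lower and Il2rg 1.15-fold lower. The interleukin-4 receptor gene Il4ra was at 378 ± 21.5 CPM against 820.4 ± 9.6 CPM (2.17-fold lower), Il15ra rose 2.46-fold and Il9r 3.10-fold. Between the wild-type groups 7 of the 9 rose in ST2-high and 0 fell by edgeR, beside 15.3% and 10.8% of all tested genes, with Il9r 5.92-fold, Crlf2 1.43-fold and Il7r 1.37-fold higher, and Il4ra and Il15ra did not pass. In ST2KO against ST2-high 2 rose and 6 fell, among them Il21r (2.38-fold lower), beside 31.9% and 32.6% of all tested genes. The same shares over all tested genes stand behind the counts of every other list.

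Of 7 tested gp130 and interleukin-10 family receptors, 4 rose and 1 fell in ST2KO against ST2-low. The fall was in Il6st, which encodes gp130, at 407 ± 34 CPM against 941 ± 30 CPM (2.31-fold), while Il10rb and Il27ra rose 1.77-fold and 1.52-fold. From ST2-low to ST2-high 2 rose and 2 fell, with Il10ra 1.94-fold higher, Il6st 1.23-fold lower and Il6ra 1.15-fold lower. In ST2KO against ST2-high 3 rose and 3 fell, Il6ra being 1.65-fold higher. Of the 3 interleukin-12 and interleukin-23 receptor genes, 1 rose and 2 fell in ST2KO against ST2-low, Il12rb1 by 1.68-fold up and Il12rb2 by 1.99-fold down. Of the 3, Il12rb1 rose in ST2-high against ST2-low (1.64-fold), and 2 fell in ST2KO against ST2-high.

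Of 4 tested interferon receptor genes, 3 fell in ST2KO against ST2-low, where 29.3% of all tested genes fell, and the other, Ifnar2, did not pass (edgeR adjusted p = 0.374). Ifngr2 was at 41.7 ± 1.5 CPM against 207 ± 17 CPM (4.95-fold lower), Ifngr1 was 2.99-fold lower and Ifnar1 1.98-fold lower. Against ST2-high the same 3 fell, by 3.31-fold, 2.96-fold and 2.48-fold, and Ifnar2 rose 1.29-fold. From ST2-low to ST2-high, Ifngr2 and Ifnar2 fell 1.49-fold and 1.24-fold and Ifnar1 rose 1.25-fold.

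Genes that restrain JAK-STAT signalling numbered 17, of which 10 fell and 4 rose in ST2KO against ST2-low, beside 29.3% and 33% of all tested genes. Socs3, an inhibitor of gp130 signalling, was at 179 ± 9.3 CPM against 394 ± 29 CPM (2.20-fold lower). The phosphatase gene Ptpn2 fell 1.87-fold and the phosphatase gene Ptpn6 rose 1.85-fold. Against ST2-high 9 fell and 4 rose, beside 32.6% and 31.9% of all tested genes, with Cish, a STAT5-induced inhibitor, 2.43-fold lower. Within the wild type 4 rose and 3 fell in ST2-high, beside 15.3% and 10.8% of all tested genes, with Socs5, Cish and Socs2 1.70-fold, 1.5-fold and 1.44-fold higher.

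Genes known as STAT5 targets moved both ways. Of 15, 7 rose, 6 fell and 2 did not pass in ST2KO against ST2-low, with a median log2 fold change of 0.12 against 0.05 over all tested genes. Lta and Socs2 rose 2.88-fold and 1.81-fold, and Nfil3, Cish and the survival kinase gene Pim1 fell 2.0-fold, 1.62-fold and 1.60-fold. In ST2KO against ST2-high 7 rose and 7 fell, with the granzyme gene Gzmb 4.13-fold, the survival gene Bcl2l1 3.51-fold and Pim1 2.76-fold lower. From ST2-low to ST2-high, 9 rose and 2 fell, Gzmb by 3.42-fold and Bcl2l1 by 2.71-fold up, beside the small fall of Stat5a.

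Of 10 tested STAT3 targets, 7 fell and 2 rose in ST2KO against ST2-low and 8 fell and 2 rose against ST2-high, with medians of -0.44 and -0.83 on the log2 scale. Over all tested genes 29.3% and 32.6% fell, and the medians were 0.05 and 0.02. Rora, a nuclear receptor of Th17 and effector Treg cells, was at 28.8 ± 2.0 CPM in the knockout, 86.7 ± 0.11 CPM in ST2-low and 203 ± 19 CPM in ST2-high. Bcl3 fell 1.27-fold against ST2-low and 2.34-fold against ST2-high, and Pim1 stands on this list as well. Between the wild-type groups 6 rose and 2 fell, with Rora, Batf and Bcl3 2.35-fold, 2.05-fold and 1.84-fold higher while Stat3 itself did not pass. Il17a, Il17f and Il21 did not pass the filter.

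Of 8 STAT4 targets, 3 rose and 4 fell in ST2KO against ST2-low. Il18r1 rose 3.99-fold, while Ifngr1, also on the receptor list, and Il12rb2 fell. From ST2-low to ST2-high 3 rose and 0 fell by edgeR, Il18rap by 3.98-fold, Il18r1 by 2.74-fold and the protease gene Furin by 1.31-fold. In ST2KO against ST2-high 2 rose and 5 fell, Furin by 2.41-fold and Il18rap by 2.15-fold. Of the 9 listed STAT6 targets 4 were tested, as Il4, Il5, Il13, Il24 and Arg1 did not pass the filter. In ST2KO against ST2-low the chemokine receptor gene Ccr8 and Il4ra fell 3.23-fold and 2.17-fold and Gata3 and Ccr4 rose 1.27-fold and 1.19-fold, beside the rise of Stat6. All 4 fell against ST2-high, and 3 rose in ST2-high against ST2-low, Ccr4 by 2.26-fold, Gata3 by 1.67-fold and Ccr8 by 1.48-fold.

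Of 22 interferon-stimulated genes, which STAT2-containing complexes switch on, 12 rose and 2 fell in ST2KO against ST2-low and 13 rose and 2 fell against ST2-high, with medians of 0.47 and 0.56 on the log2 scale. Over all tested genes 33% and 31.9% rose, and the medians were 0.05 and 0.02. Usp18, an inhibitor of interferon receptor signalling, was at 22.9 ± 4.3 CPM in the knockout, 6.55 ± 0.92 CPM in ST2-low and 4.06 ± 0.45 CPM in ST2-high. Ifit2 rose 2.66-fold and Ifit3 2.91-fold against ST2-low. Irf9, which encodes the partner of STAT2 in that complex, measured 120.1 ± 4.3 CPM against 128 ± 4.8 CPM in ST2-low, with no call (edgeR adjusted p = 0.158), like Stat2. Within the wild type, Oas1a rose 1.52-fold, Usp18 and Oasl2 fell 1.59-fold and 1.57-fold, and 19 did not pass in ST2-high against ST2-low.

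**Figure D5:**
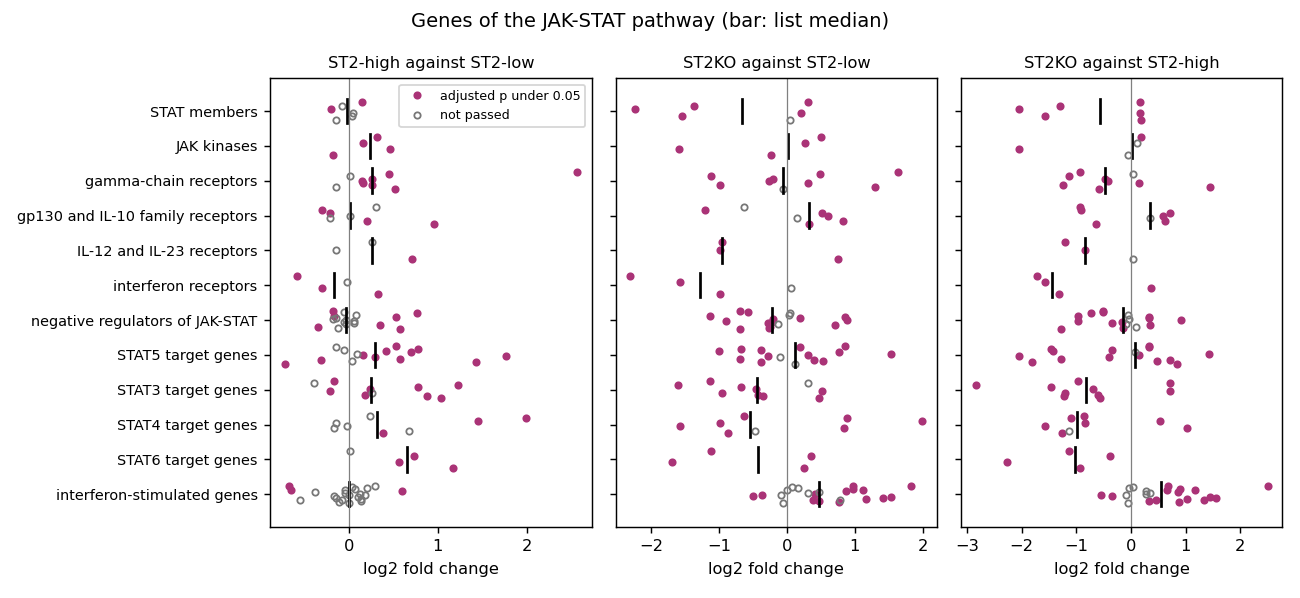
Log2 fold changes (horizontal axes) of the tested genes of each list in the 3 comparisons; filled points passed at adjusted p under 0.05, open points did not, and black bars are list medians. In both ST2KO panels the STAT row splits into 3 genes at -1.30 or lower and 3 at or above 0.05, and the STAT5 target row spreads to both sides of 0.

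By Pearson correlation of log2 CPM over the 9 libraries, among genes with a mean of at least 10 CPM, the profiles most like that of Stat5a were those of Kpna1, an importin gene, and Nr4a3, a nuclear receptor gene induced by antigen (r = 0.999 for both). Nr4a3 was 5.64-fold and Kpna1 3.27-fold lower in ST2KO than in ST2-low. For Stat3 they were Gpr132 and the kinase gene Map3k14 (r = 0.999 for both), 4.31-fold and 3.65-fold lower. For Stat5b they were Nup98, a nuclear pore gene, and Rlim, a ubiquitin ligase gene (r = 0.998 for both). For Stat4 they were Mbtps2 and Lrrcc1 (r = 0.991 and 0.982), for Stat6 Plcb3 and Phldb3 (r = 0.980 and 0.976) and for Stat2 Snhg8 and Taf4a (r = 0.972 and 0.969). The 9 values fall into groups, so these correlations mostly describe differences between groups, which many genes share. For Stat3, Stat5a and Stat5b that is the difference between ST2KO and the wild type. Stat2, Snhg8 and Taf4a were instead lowest in ST2-high, and neither Stat2 nor Taf4a passed in ST2KO against ST2-low.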

How the data were processed

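RNA sequencing counts per gene symbol were deposited for 9 libraries; per the file headers each file holds 1 library, and the whole-number counts carry no normalization by the authors. How reads were aligned, counted and assigned to strands, and on which build, is not given in the sources used here. Each file had 23420 rows; 27 rows whose symbol had become a calendar date were left out. Counts were filtered with filterByExpr (minimum count 10, minimum total 15), scaled with TMM factors and tested by quasi-likelihood in edgeR (version 4.0.16 under R 4.3.3, robust, with all 9 libraries and no covariates), with Benjamini-Hochberg adjustment over 12219 genes at 0.05. CPM refers to the counts of tested genes. The SE of a log2 fold change was derived from the F statistic, and 95% intervals are 1.96 SE wide on each side. The Stat5a to Stat5b ratio used counts plus 0.5.

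The members, the gene lists, the ratio and the tests were chosen with earlier results of these data known. Outside the STAT genes and JAKs, up to 3 genes of each list with the largest change past the threshold and at least 5 CPM were named, up to 2 from marker lists, with further members named as examples chosen after their values were seen; also the 2 nearest tested genes on each side of each member and the 2 with the most similar profile. The 500 kb window was chosen after seeing the data. Some neighbours under this rule are not reported here. Gene order came from RefSeq (GRCm38.p6), used for neighbours only. Alternatives were DESeq2 size factors, DESeq2's Wald test (1.42.0), limma-voom (3.58.1), no filter, a fit of only 2 groups, a block for replicate number, leaving out each library or Rn45s and, for the ratio, a pseudocount of 5 and TMM log2 CPM. Within groups the chi-square per gene, with Rn45s included, was 4.46 to 19.9, so no 2 libraries agreed within sampling noise and none were merged. This does not show that they are independent animals.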

Additional observations from a re-analysis of the deposited data

How the results depend on the processing

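Stat3, Stat5a and Stat5b were lower in ST2KO than in both wild-type groups under all 16 alternatives, with log2 fold changes against ST2-low of -1.58 to -1.53, -2.28 to -2.23 and -1.41 to -1.33. The number of STAT genes called in ST2KO against ST2-low was 5 in each alternative; against ST2-high it was 5 or 6. In ST2-high against ST2-low it was 1 without Rn45s instead of 2, and between 1 and 2 when a library was left out. The loss was the call of Stat6 each time. With DESeq2 size factors or DESeq2's Wald test the number stayed 2, but Stat2, lower, took the place of Stat6. Stat6 then had an edgeR adjusted p of 0.0921 and a DESeq2 Wald adjusted p of 0.106. Stat3, which did not pass in ST2-high against ST2-low, changed sign without ST2-high replicate 3. Its log2 fold change was then -0.012, with a range over libraries left out of -0.012 to 0.074. Deviations from group means correlated between -0.0626 and 0.0984 for same-numbered libraries of different groups. For differently numbered libraries the range was -0.114 to 0.0732. With 3 libraries a group, these values cannot show whether libraries were paired. With the replicate number as a block, 3210, 7622 and 7885 genes were called in place of 3189, 7607 and 7876, and the ratio of Stat5a to Stat5b had an exact permutation p of 0.0278, the smallest that this block allows. Without the block, the p of the ratio over 3 groups lay between 0.00357 and 0.0107 over libraries left out, and the ratio differences kept their sign.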
